A study of Mus musculus with 16 samples.

Results

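The interaction of a ligature and an occlusal overload on gene expression was examined in mouse periodontal ligament, in all 16 libraries of the study. It was defined as the effect of trauma in the presence of the ligature minus the effect of trauma in its absence. All libraries came from 9-week-old male wild-type C57BL/6J mice, and each of the 4 groups held 4 libraries. Control mice had no treatment. Ligature mice carried a 6-0 silk thread around the left upper second molar, which retains plaque at the gum margin and is a standard model of periodontitis. Trauma mice had composite resin built onto the biting surface of that molar, so that it met its opponent too early. The ligature plus trauma group had both. How long each was left in place is not given in the sources used here, and the labels do not say whether a library came from 1 mouse, so the p-values speak for the scatter among libraries, part of which may be technical.

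The periodontal ligament is the collagen-rich tissue that suspends a tooth root in its socket and senses bite force. In periodontitis, neutrophils and macrophages release cytokines that lead stromal cells to make the osteoclast factor RANKL, and osteoclasts then remove the socket bone. Overload of a tooth acts on the same ligament by force. A gene of which the response to both is the sum of the separate responses on the log2 scale has an interaction of 0, and its fold changes multiply. On the scale of CPM, a gene's reads as a share of its library after scaling, an interaction of 0 means that the rises above control add up in CPM. The same gene can therefore lie below additivity on 1 scale and above it on the other, and both are given throughout. A negative value is called less than additive and a positive value more than additive.

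Total counts per library ranged from 58458102 to 77468584. The ligament fibroblast gene Postn was abundant in every library, from 6008 to 31406 CPM, and 18 of 19 ligament fibroblast markers passed the expression filter. The bone gene Bglap (228 to 3232 CPM) and the osteoclast gene Ctsk (572 to 9370 CPM) were also counted in every library, and the series title speaks of bone where the labels name the ligament. Libraries also differed in other tissues: the score of the skeletal muscle list (the mean over its members of log2 CPM minus the gene's own mean) ran from -2.59 to 4.90, and that of the oral epithelium list from -2.54 to 4.13. Library 2 of the ligature group and libraries 2 and 3 of the group with both stood apart by a shift towards short transcripts. In them the correlation across genes of transcript length with the deviation from the overall mean was -0.331, -0.273 and -0.283, against -0.084 to 0.251 in the other 13 libraries. Values from the 13 libraries alone are given below for the results that rest on these samples.

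No gene passed the test of the interaction on either scale. By edgeR's quasi-likelihood test on the log2 scale, the adjusted p (Benjamini-Hochberg) was under 0.05 for 0 of 20953 genes (0%), and the lowest adjusted p was 0.108, for Saa3. At an unadjusted p under 0.05 there were 1032 genes (4.93%), against 1048 that would be reached by chance alone, with 552 (2.63%) less and 480 (2.29%) more than additive. On the CPM scale 0 genes (0%) passed, and 406 (1.94%) had an unadjusted p under 0.05, of which 168 (0.802%) were less and 238 (1.14%) more than additive. These 406 are well under the 1048 of chance, so the CPM test was strict and its 0 passing genes say little. Run on linear CPM, limma also passed 0 genes, with 987 at an unadjusted p under 0.05 and a lowest adjusted p of 0.320. Among the other tools DESeq2 called 57 genes on the log2 scale, limma-trend called Saa3 alone, and limma-voom with sample weights called 0. Of the 57, 41 had a mean log2 CPM below 0, and 11 a mean of at least 2. The genes described below are therefore those of lowest p in each direction, a fixed panel and fixed lists, and the text gives their values without calling them changed.

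The design measures an interaction less precisely than a single effect. Among the 11691 genes with a mean log2 CPM of at least 2, the median standard error (SE) of the log2 interaction was 0.417, against 0.295 for the effect of trauma without the ligature. The median half-width of the 95% interval was 0.884. For 33.2% of these genes the whole interval lay between -1 and 1, so a departure from additivity of over a factor of 2 either way was outside the interval for only that part of them. The 2 scales had opposite signs in 6.60% of these genes, 592 being less than additive on the log2 scale and more on the CPM scale, and 180 the other way. An unadjusted p under 0.05 with the same sign on both scales was found for 290 genes. Over all 20953 genes tested, 51.6% had an interaction below 0 on the log2 scale and 49.7% on the CPM scale. The list counts below stand beside these shares.

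**Figure D1:**
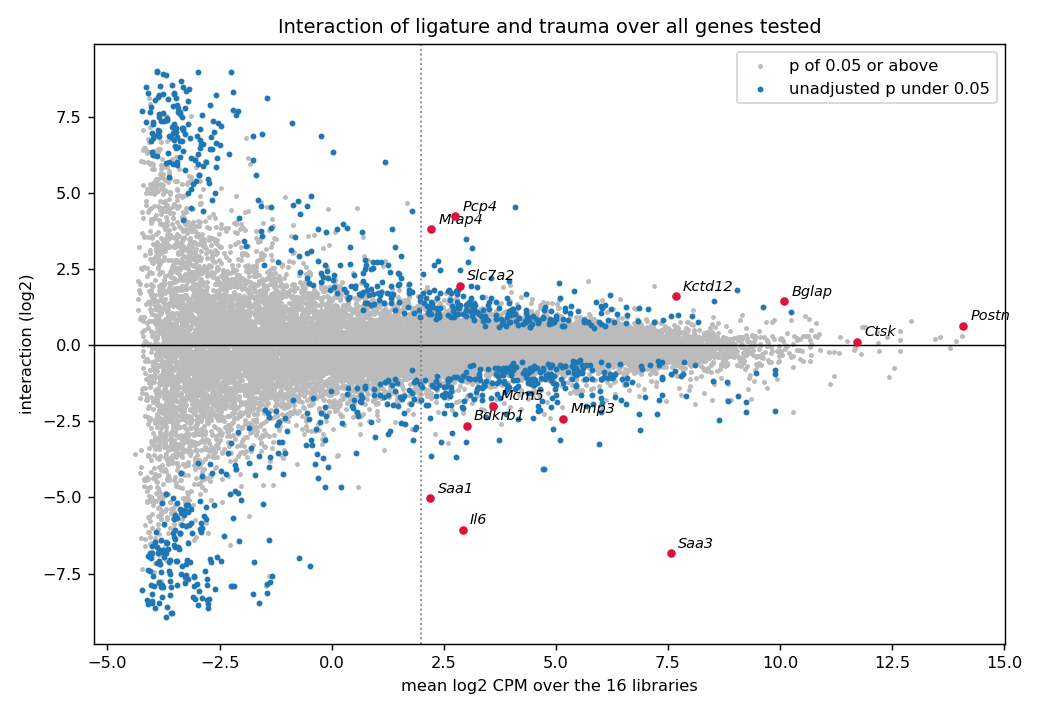
Log2 interaction (vertical) against mean log2 CPM over the 16 libraries (horizontal) for each gene tested, with genes of unadjusted p under 0.05 in blue, named genes in red and a dotted line at a mean of 2; 58 genes beyond 9 on the vertical axis are not drawn. The spread narrows with expression, and Saa3 lies at -6.83 far from genes of like abundance.

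Inflammatory genes had median log2 effects above 0 for either insult, and their levels with both were near those with the ligature alone. Saa3, an acute-phase protein made locally by inflamed stroma and macrophages, had the lowest interaction p of all genes. It was at 0.979, 0.368, 0.399 and 0.323 CPM in control libraries 1 to 4, and at 24.1, 140, 65.3 and 64.6 CPM in trauma libraries 1 to 4. With the ligature it reached 5624, 14995, 3749 and 5665 CPM, and with both 4335, 10351, 20656 and 1942 CPM. Every trauma library lay above every control library, while the ligature and ligature plus trauma groups overlapped. The effect of trauma on Saa3 was thus 7.14 ± 0.86 (log2 ± SE) without the ligature and 0.31 ± 0.65 with it. The log2 interaction was -6.83 ± 1.02 (95% interval -8.99 to -4.66, unadjusted p = 5.14e-06, edgeR adjusted p = 0.108). It passed in 5 of 27 alternatives, and the adjusted p was as high as 0.591 with limma-voom. The 5 include the fits without the library ligature plus trauma 3 (-7.57, adjusted p = 0.0396) and in the 13 libraries (-7.80, adjusted p = 0.0315). Both of these leave out ligature plus trauma 3, the library with the most Saa3. On the CPM scale the summed rises predict 7581 CPM and the mean with both was 9321 CPM. The interaction of 1740 ± 3812 CPM is too imprecise to place Saa3 above or below additivity on this scale. Its sign turned without ligature plus trauma 3, at -2079 CPM. The rise with trauma alone was small in CPM beside that with the ligature, so the CPM value mainly compares the 2 groups that carried the ligature.

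Saa1, of the same family, was at 0.363 to 17.4 CPM with trauma, 18.2 to 46.3 with the ligature and 6.4 to 74.4 with both, against at most 0.436 in control. Its log2 interaction was -5.02 ± 1.28 (edgeR adjusted p = 0.732) and its CPM interaction -3.75 ± 19.3. Saa1 and Saa2 are near-identical copies whose reads may be split, so their values are uncertain one by one.

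The Saa3 promoter is shown because C/EBP factors act in the acute-phase response that IL-6 sets off. The RefSeq window is chr7:46715627-46715926 on the - strand of GRCm38.p6, given 5′ to 3′ along the gene, and capitals mark the 1 match to TTGCNNAA on either strand, which 10.8% of all promoter windows of 300 bases also hold.
Saa3: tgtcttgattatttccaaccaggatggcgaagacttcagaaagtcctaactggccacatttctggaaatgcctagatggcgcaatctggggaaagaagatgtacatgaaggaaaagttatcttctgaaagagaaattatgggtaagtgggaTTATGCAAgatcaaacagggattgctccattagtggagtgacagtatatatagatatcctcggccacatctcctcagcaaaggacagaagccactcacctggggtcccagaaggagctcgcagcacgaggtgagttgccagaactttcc

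Il6, the cytokine that drives the acute-phase response, shows the scales at odds. In control libraries it was at 0.0483, 0, 0.309 and 0 CPM, and in trauma libraries at 0.376, 56.5, 2.67 and 11.3 CPM. The ligature libraries held 85.2, 62.3, 55.9 and 41.9 CPM, and those with both 115, 354, 117 and 119 CPM, all above the highest ligature library. The log2 interaction was -6.06 ± 1.62 (edgeR adjusted p = 0.732), a fitted value that rests on the few counts in control, and the CPM interaction was 97.2 ± 90.2. The CPM sum of the separate rises was 78.9, below each of the 4 libraries with both. Without trauma 2, the highest trauma library, the log2 interaction was -4.17, and without control 3 it was -8.32. The CPM interaction was 39.0 without ligature plus trauma 2 and 24.6 with the tissue scores as covariates.

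The inflammatory cytokine and chemokine list had a log2 interaction below 0 in 21 of 21 members, with a median of -1.56, against 51.6% of all genes tested and a median of -0.02. An unadjusted p under 0.05 was found for 6 of the 21 (28.6%, against 4.93% of all genes), and 0 passed. The median effect of trauma over the list was 2.01 without the ligature and 0.30 with it. Ccl2, which draws monocytes, had a log2 interaction of -3.12 ± 1.09 (-1.88 without trauma 2 and -1.65 with limma-voom), and Cxcl3, which draws neutrophils, one of -2.28 ± 0.85. For Il1a, an alarm cytokine of stroma and epithelium, it was -1.94 ± 0.71. On the CPM scale 15 of the 21 members were below additivity, so these 15 were so on both scales. Among them Cxcl3 was at -243 ± 131 CPM and Il1a at -147 ± 58.7 CPM. Cxcl5, Cxcl1 and Csf3 had CPM interactions of -1142, -349 and -210, with unadjusted p of 0.068, 0.174 and 0.057 by the Wald test. Only 1 of the 21 members, Il1a, had an unadjusted p under 0.05 on this scale. The 6 members above 0 included Il1b at 90.5, Ccl4 at 65.3 and Ccl3 at 32.4 CPM. Others were near 0 for their error: Ccl2 -8.08 ± 81.4, Cxcl2 22.3 ± 138 and Ptgs2, the inducible prostaglandin synthase, 2.99 ± 49.2 CPM. Each of these 3 CPM values changed sign under at least 1 alternative. Il1a was at 39.3, 263, 171 and 198 CPM with trauma and 186, 82.7, 146 and 117 CPM with the ligature, but at 68.3 to 98.7 CPM with both. These CPM values overlapped those of control, which ran from 24.3 to 119.

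Trauma libraries were uneven in this list. Its score was -1.57, 1.23, 0.27 and 0.78 in trauma 1 to 4, the first lying within the control range of -2.70 to -0.90. The list median of the interaction was -1.22 without trauma 2, -1.94 without trauma 1 and -2.18 in the 13 libraries. The acute-phase and secreted host defence list was below 0 in 13 of 15 tested members, with a median of -1.44 (-2.04 in the 13 libraries) and 11 of 15 below 0 in CPM. Lcn2, an iron-binding antibacterial protein, was at 63.9, 782, 427 and 373 CPM with trauma and at 64.2, 179, 310 and 37.1 CPM with both. Its interaction was -2.79 ± 0.96 on the log2 scale and -344 ± 151 in CPM (-220 without trauma 2), less than additive on both.

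Neutrophil markers were mostly less than additive on the log2 scale and of mixed sign in CPM. The mature neutrophil list was below 0 in 14 of 18 members on the log2 scale, with a median of -1.18. On the CPM scale it was below 0 in 7 of 18 (38.9%, against 49.7% of all genes tested). Its median effect of trauma was 1.64 without the ligature and 0.67 with it. Cxcr2, the chemokine receptor that guides neutrophils, was at 8.18 to 19.5 CPM with trauma, 9.80 to 21.2 with the ligature and 10.4 to 36.5 with both, and at 0.515 to 6.03 in control. Its interaction was -1.78 ± 0.80 on the log2 scale and -5.22 ± 7.77 CPM. S100a8 and S100a9, the subunits of the antimicrobial protein calprotectin, had their highest group means with trauma. S100a8 was at 276, 2557, 1878 and 1177 CPM, against 444, 710, 389 and 217 with the ligature and 297, 1841, 1808 and 470 with both. S100a8 had a log2 interaction of -1.81 ± 0.95 and S100a9 one of -1.83 ± 0.85. In bulk tissue, fewer cells of a type and less RNA per cell cannot be told apart. In the 13 libraries the neutrophil list median was -2.20, and in them the CPM interaction of S100a8 was -1323, where all 16 libraries gave -641 ± 622 and those without trauma 2 gave -279. Epithelial markers moved with the groups: the oral epithelium score was -0.95 to 3.27 in control, 0.53 to 4.13 with trauma, -2.28 to -1.04 with the ligature and -2.54 to -0.45 with both. On the log2 scale 17 of its 23 members were below additivity, and Krt4 was at 0 in ligature plus trauma 4. With the epithelium and muscle scores as covariates the log2 interaction was -1.76 for S100a8 and -1.82 for S100a9, and the CPM interaction -369 and -540.

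**Figure D2:**
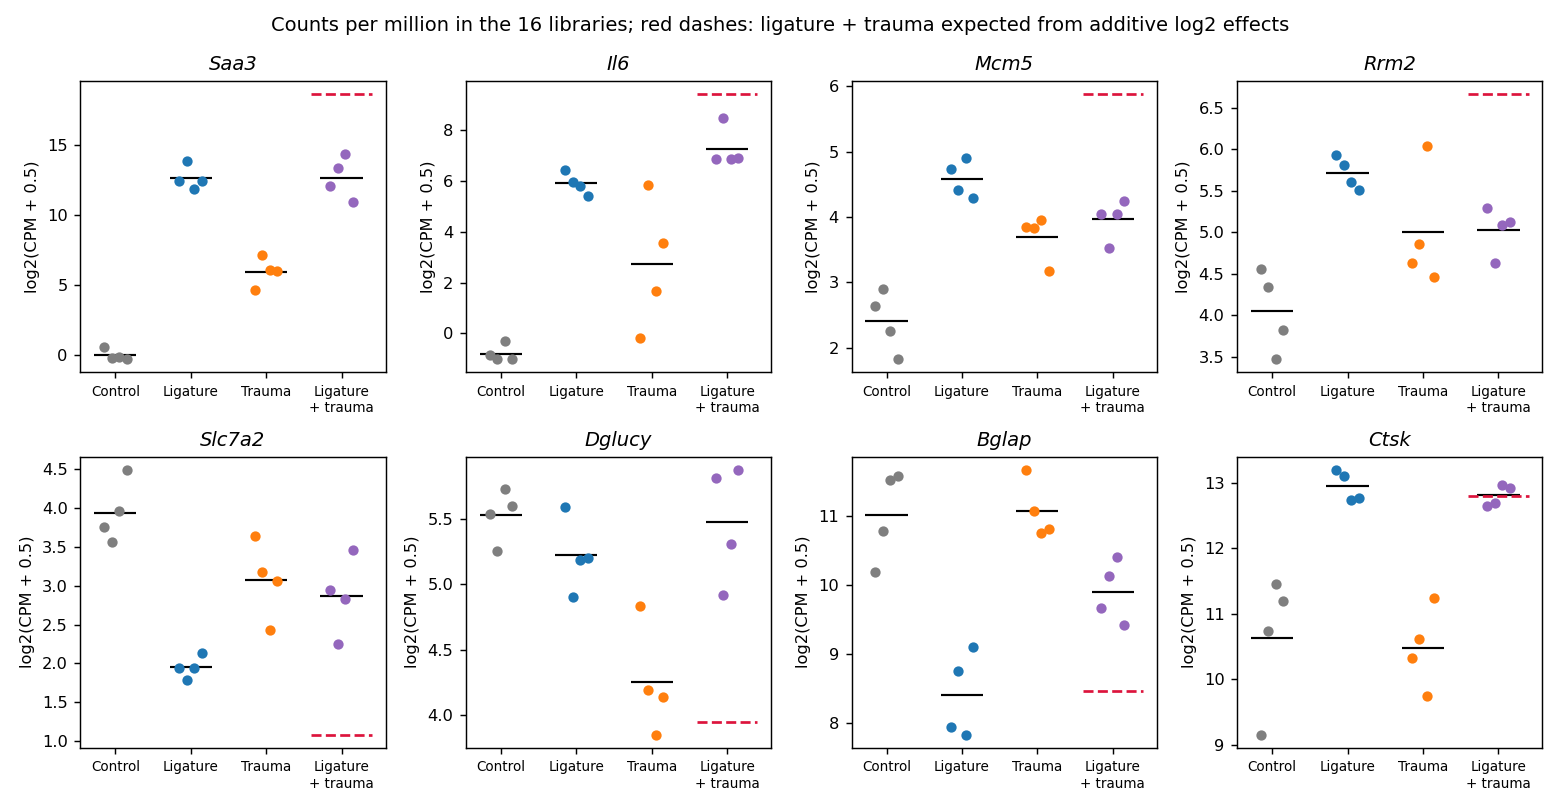
Expression of 8 genes in the 16 libraries as log2(CPM + 0.5), with a black bar at each group mean and a red dashed line at the level expected with both insults if log2 effects added. With both insults Saa3, Il6, Mcm5 and Rrm2 lie below the line, Slc7a2, Dglucy and Bglap above it, and Ctsk on it.

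Signals that drive or restrain resorption, taken as 1 list, were mostly below additivity on the log2 scale, and the osteoclast genes lay around 0. Tnfsf11, which encodes RANKL, was at 2.56, 19.0, 17.1 and 37.5 CPM in control and at 5.48, 87.9, 17.3 and 117 CPM with trauma. It was at 65.6 to 97.8 CPM with the ligature and 82.7 to 103 CPM with both. The trauma group alone spanned from control levels to above both ligature groups, and the interaction was -1.48 ± 1.02 on the log2 scale and -31.9 ± 48.3 CPM, and -0.86 and -12.0 CPM without trauma 4. Tnfrsf11b, the decoy receptor that blocks RANKL, had an interaction of -0.08 ± 0.55 (95% interval -1.25 to 1.09). The osteoclastogenic and resorption signal list was below 0 in 17 of 19 members with a median of -0.88 (-1.14 in the 13 libraries, -0.32 without trauma 2). Its members Il6, Il1a, Ptgs2, Il1b, Lif, Osm, Tnf and Il11 also belong to the inflammatory list.

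The osteoclast list had a median interaction of 0.04 on the log2 scale, with 8 of 17 members below 0, and 0 with an unadjusted p under 0.05. Its median effect of the ligature was 2.2 without trauma and 2.13 with it, and that of trauma was -0.32 without and -0.33 with the ligature. Ctsk, the collagen-degrading protease of the resorbing osteoclast, was at 6788 to 9370 CPM with the ligature and 6427 to 7988 with both. Its interaction was 0.12 ± 0.54 (95% interval -1.02 to 1.26) on the log2 scale and -480 ± 2061 CPM. Acp5, the osteoclast acid phosphatase, gave -0.24 ± 0.61 and -288 ± 758 CPM. The interval of Ctsk still admits a halving or a doubling, so these data do not show that the effects multiply. On the CPM scale 15 of 17 members were below 0, at levels several times higher with the ligature than without.

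Matrix proteases were split by gene. Mmp3, stromelysin, was at 0.534 to 1.70 CPM in control and 0.665 to 9.87 CPM with trauma, but at 1333, 1057, 891 and 741 CPM with the ligature and 445, 886, 960 and 398 CPM with both. Its log2 interaction was -2.41 ± 0.86 (unadjusted p = 0.0124) and its CPM interaction -336 ± 349. Without trauma 2 the log2 value was -1.44, and in the 13 libraries the values were -3.05 and -583 CPM. Mmp10, a related stromelysin, was at 55.0 to 189 CPM with trauma and 39.8 to 75.5 CPM with both, and was less than additive on both scales, at -1.89 ± 0.72 and -101 ± 41.4 CPM. Mmp13, a collagenase of bone and ligament, gave 0.09 ± 0.76, and its sign depended on the setting in 8 of 27 alternatives. Over the whole protease and inhibitor list 13 of 23 members were below 0, with a median of -0.13.

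**Figure D3:**
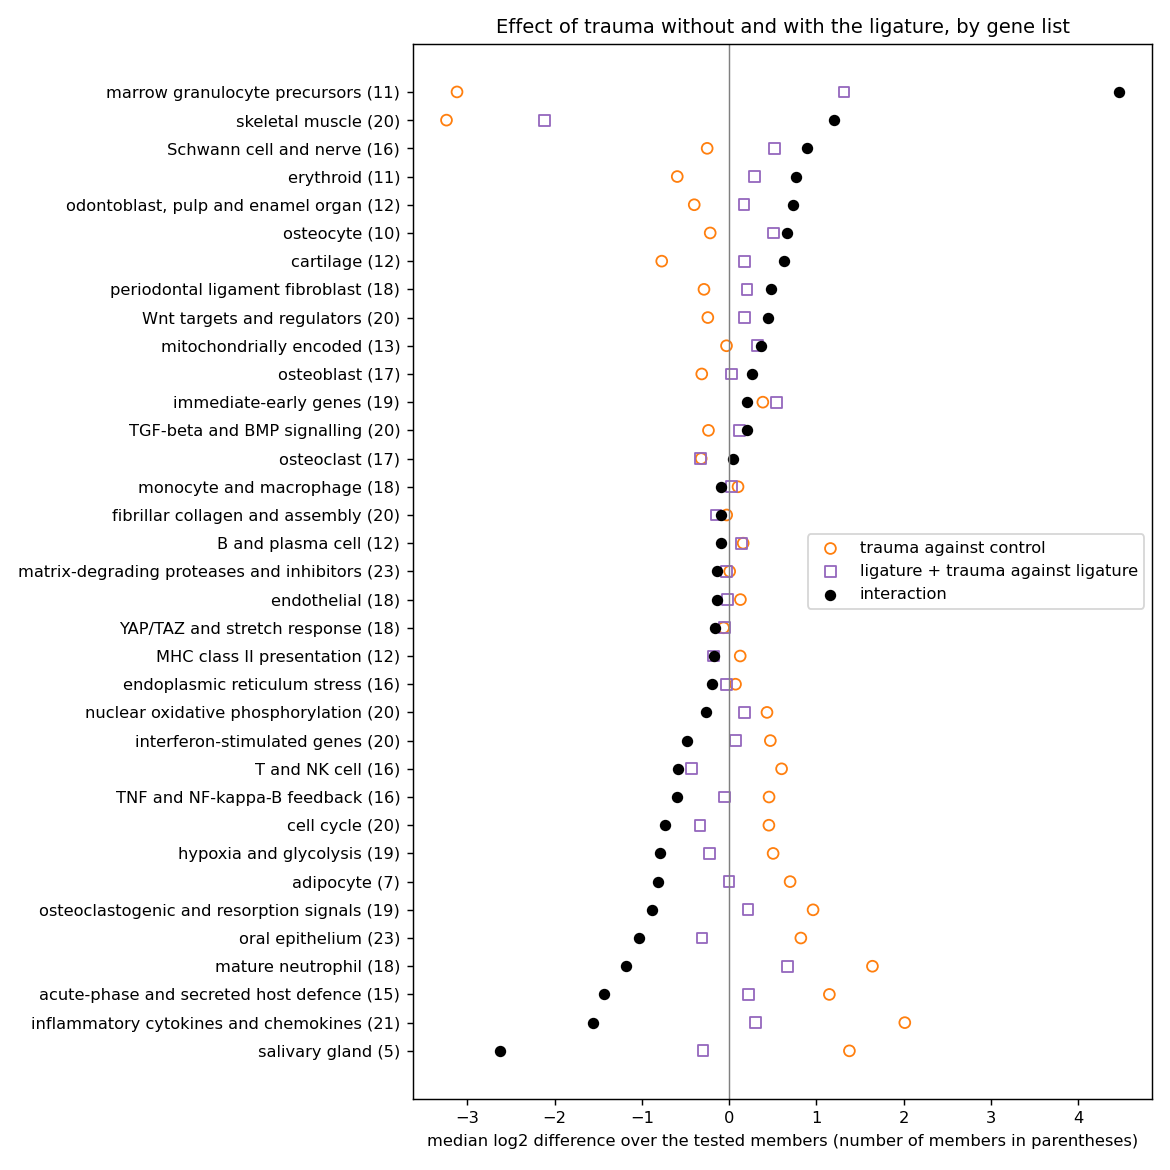
Median log2 difference over the tested members of each gene list for trauma against control (open circles), ligature plus trauma against ligature (open squares) and their difference, the interaction (filled circles). In the inflammatory, acute-phase and cell cycle lists the circles lie right of the squares, while in the Schwann cell and ligament fibroblast lists they lie left.

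Genes of DNA replication lay below additivity on both scales. Mcm5 encodes a subunit of the helicase that unwinds DNA at replication origins. It was at 5.73, 6.97, 4.29 and 3.06 CPM in control, 13.9, 13.8, 15 and 8.50 CPM with trauma and 26.0, 20.7, 29.5 and 19.1 CPM with the ligature. With both it was at 16.1, 11, 16.1 and 18.5 CPM. Every library with both insults lay below every library with the ligature alone and above every control. The sum of the separate rises predicts 31.6 CPM and the mean with both was 15.4 ± 3.13 (SD, n = 4) CPM. The interaction was -1.98 ± 0.39 on the log2 scale (95% interval -2.81 to -1.16, edgeR adjusted p = 0.554) and -16.2 ± 4.21 on the CPM scale. Leaving out any single library kept the log2 value between -2.18 and -1.81.

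Rrm2, the small subunit of the enzyme that makes deoxynucleotides, was at 60.5, 55.7, 48.3 and 45.2 CPM with the ligature and at 38.7, 24.2, 33.5 and 34.5 CPM with both. Trauma 3 held 65.3 CPM of it and the other trauma libraries 21.6 to 28.6. The log2 interaction was -1.74 ± 0.46, and -1.24 without trauma 3. Mcm2, another helicase subunit, gave -1.27 ± 0.33 and -8.11 ± 2.76 CPM. Pclaf, a partner of the sliding clamp PCNA, gave -2.12 ± 0.55 on the log2 scale and -27.2 ± 14.1 CPM. For all 4 of these genes the trauma effect was above 0 without the ligature and below 0 with it, for instance 1.35 ± 0.28 and -0.63 ± 0.27 for Mcm5. The 4 were chosen by low p among genes less than additive, so a lower effect with the ligature follows from the choice.

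The cell cycle list as a whole was below 0 in 18 of 20 members on the log2 scale (median -0.73) and in 19 of 20 on the CPM scale. An unadjusted p under 0.05 was found for 7 of 20 members on each scale (35%, against 4.93% and 1.94% of all genes), and 0 passed. The 4 members of lowest p were Mcm5, Mcm2, Rrm2 and Mcm3, which gave -1.14 ± 0.35. Both replication and mitotic genes varied: Mcm4 was at -0.71, Pcna at -0.69, Mcm6 at -0.64 and Mcm7 at -0.44, and the mitotic genes Ccnb2 at -1.30, Bub1 at -1.21, Cdc20 at -0.27 and Ccnb1 at 0.33. The list score was -1.03 to -0.43 in control, 0.55 to 1.0 with the ligature, 0.03 to 0.59 with both, and -0.54, -0.13, 0.16 and -0.99 in trauma 1 to 4. Trauma 3, the highest of its group, also had the highest oral epithelium score, 4.13. With the epithelium and muscle scores as covariates the list median was -0.52 and Mcm5 was at -1.80, without trauma 3 it was -0.58 and in the 13 libraries -0.74.

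The promoters of 2 of the replication genes are shown because the E2F factors that switch on this gene set bind a short known motif. The windows run from 250 bases before to 50 after the RefSeq start (build GRCm38.p6), and capitals mark matches to TTTCCCGC, TTTGGCGC, TTTCGCGC or TTTGCCGC on either strand. The first is Mcm5 at chr8:75109259-75109558 on the + strand, where 2 matches overlap, and the second Pclaf at chr9:65890073-65890372 on the + strand, with 1 match.
Mcm5: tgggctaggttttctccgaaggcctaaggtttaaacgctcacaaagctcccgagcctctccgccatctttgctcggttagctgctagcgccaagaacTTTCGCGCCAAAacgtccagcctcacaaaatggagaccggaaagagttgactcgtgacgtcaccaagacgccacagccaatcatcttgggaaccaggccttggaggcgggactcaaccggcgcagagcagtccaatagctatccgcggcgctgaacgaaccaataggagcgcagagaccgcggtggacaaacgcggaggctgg
Pclaf: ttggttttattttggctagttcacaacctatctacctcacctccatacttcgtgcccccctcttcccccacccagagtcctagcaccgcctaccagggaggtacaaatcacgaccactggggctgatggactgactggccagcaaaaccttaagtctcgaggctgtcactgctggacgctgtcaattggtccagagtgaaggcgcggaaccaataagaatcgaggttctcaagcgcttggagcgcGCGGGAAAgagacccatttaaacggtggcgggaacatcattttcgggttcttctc
Such a match was present in 2.26% of all 32851 promoter windows of 300 bases. The windows of Mcm2 and Rrm2 held 0 matches, which says only that these letters are not in them.

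Glycolytic genes also lay mostly below additivity on both scales. The hypoxia and glycolysis list was below 0 in 17 of 19 members on the log2 scale, with a median of -0.79, and in 16 of 19 on the CPM scale. Pgk1, a glycolytic kinase, had an interaction of -0.94 ± 0.34 and -132 ± 58.8 CPM, and Ldha, which makes lactate, one of -0.95 ± 0.42 and -612 ± 299 CPM. Pgk1 was at 108 to 172 CPM in control, 151 to 333 with trauma, 255 to 356 with the ligature and 237 to 356 with both, so that the 2 ligature groups overlapped. The list median of the trauma effect was 0.50 without the ligature and -0.23 with it. Its interaction median was -0.51 without ligature 2 and -0.64 in the 13 libraries.

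Further genes of lowest p among those less than additive had other roles. Bdkrb1, the inflammation-induced bradykinin receptor, was at 0.991 to 1.3 CPM in control, 1.63 to 14.6 with trauma, 18.7 to 34.4 with the ligature and 14.7 to 31.5 with both, with an interaction of -2.64 ± 0.65 on the log2 scale and -5.74 ± 7.82 CPM. Ccn5, a secreted matricellular protein, was at 49.9 to 74.3 CPM with the ligature and 30.6 to 50.7 with both, with an interaction of -1.57 ± 0.39 and -30.7 ± 10.4 CPM. On the CPM scale, several genes of lowest p had their highest group mean with trauma alone. Depdc7, of little known function, was at 6.66, 26.2, 36.7 and 13.8 CPM with trauma and at 3.47 to 8.95 CPM in the ligature groups, an interaction of -14.9 ± 4.63 CPM (-9.62 without trauma 3). Naaa, a lysosomal lipid amidase, was at 31.4, 54.9, 60.3 and 59.5 CPM with trauma and 15.1 to 29.8 CPM with both, an interaction of -24.6 ± 7.85 CPM. Trim13, a ubiquitin ligase, gave -20.7 ± 6.90 CPM (-13.6 without trauma 3). Ddit4l, an inhibitor of mTOR signalling, was at 73.2 to 91.0 CPM with trauma against 35.3 to 63.3 in control and 22.7 to 34.2 in the ligature groups, an interaction of -32.0 ± 10.1 CPM. Nrm, a protein of the nuclear envelope, gave -11.7 ± 3.70 CPM and the glycolytic enzyme gene Pgam1 -129 ± 42.8 CPM.

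The genes more than additive were mostly lower with either insult, and with both no lower than with the ligature alone. Slc7a2, a transporter of arginine and lysine, was at 12.9, 11.3, 15 and 21.9 CPM in control, 11.9, 8.56, 4.87 and 7.81 CPM with trauma and 3.34, 2.95, 3.34 and 3.89 CPM with the ligature. With both it was at 7.18, 4.27, 6.61 and 10.5 CPM, above every ligature library. The trauma effect was -0.88 ± 0.32 without the ligature and 1.08 ± 0.32 with it, and the interaction 1.96 ± 0.45 (edgeR adjusted p = 0.617) on the log2 scale and 10.7 ± 2.93 CPM. Mfap4, a protein of elastic microfibrils, was at 5.0, 22.1, 48.4 and 40.9 CPM in control, 2.2 to 6.93 with trauma, 0.262 to 3.80 with the ligature and 2.72 to 5.54 with both. Its interaction was 3.81 ± 0.95 and 26.7 ± 9.37 CPM. For Mfap4 and Slc7a2 the sum of the separate falls lies below 0 CPM, at -22.7 and -3.60, a level no gene can reach. For such genes a positive CPM interaction is forced by the size of the separate falls.

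The same held for Faim2, Dact1, Cadps2, Cygb, Cdkn1c, Kctd12, Pcp4 and Spock2, for each of which the predicted sum was below 0 CPM. Kctd12, an auxiliary subunit of GABA-B receptors, was at 441 to 941 CPM in control, 186 to 336 with trauma, 52.0 to 152 with the ligature and 105 to 147 with both, with a log2 interaction of 1.61 ± 0.45. Cdkn1c, which encodes the cell cycle inhibitor p57, was at 44.6 to 71.4 CPM in control, 17.8 to 36.8 with trauma, 12.4 to 20.6 with the ligature and 17.7 to 26.6 with both. Its log2 interaction was 1.27 ± 0.35. Dact1, a modulator of Wnt signalling, gave 1.56 ± 0.41, Cygb, a globin of fibroblasts, 1.54 ± 0.41, and Faim2, an inhibitor of Fas-driven cell death, 1.82 ± 0.45. Pcp4, a calmodulin regulator, had a value of 4.24 ± 1.08, and 2.72 in the 13 libraries.

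Among the genes of lowest p, Dglucy was lower with trauma alone and not with both. This mitochondrial enzyme of D-glutamate breakdown was at 45.9, 37.6, 52.4 and 48.0 CPM in control and 28, 17.8, 13.9 and 17.2 CPM with trauma. It was at 29.5 to 47.8 CPM with the ligature and 29.7 to 58.1 CPM with both. The 4 trauma libraries lay below all other libraries, and the interaction was 1.55 ± 0.36 (edgeR adjusted p = 0.617) on the log2 scale and 35.1 ± 9.55 CPM, with 10.6 CPM predicted and 45.7 measured. Rgs3, which shortens G protein signalling, was at 142, 76.1, 76.6 and 86.7 CPM with trauma, 83.5 to 110 with the ligature and 117 to 171 with both, an interaction of 1.23 ± 0.35 and 101 ± 29.9 CPM. Control libraries held 93.4 to 196 CPM of Rgs3, so those with both overlapped control. The trauma and ligature libraries overlapped each other, and trauma 1 lay within the control range, so low Rgs3 was not particular to trauma.

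**Figure D4:**
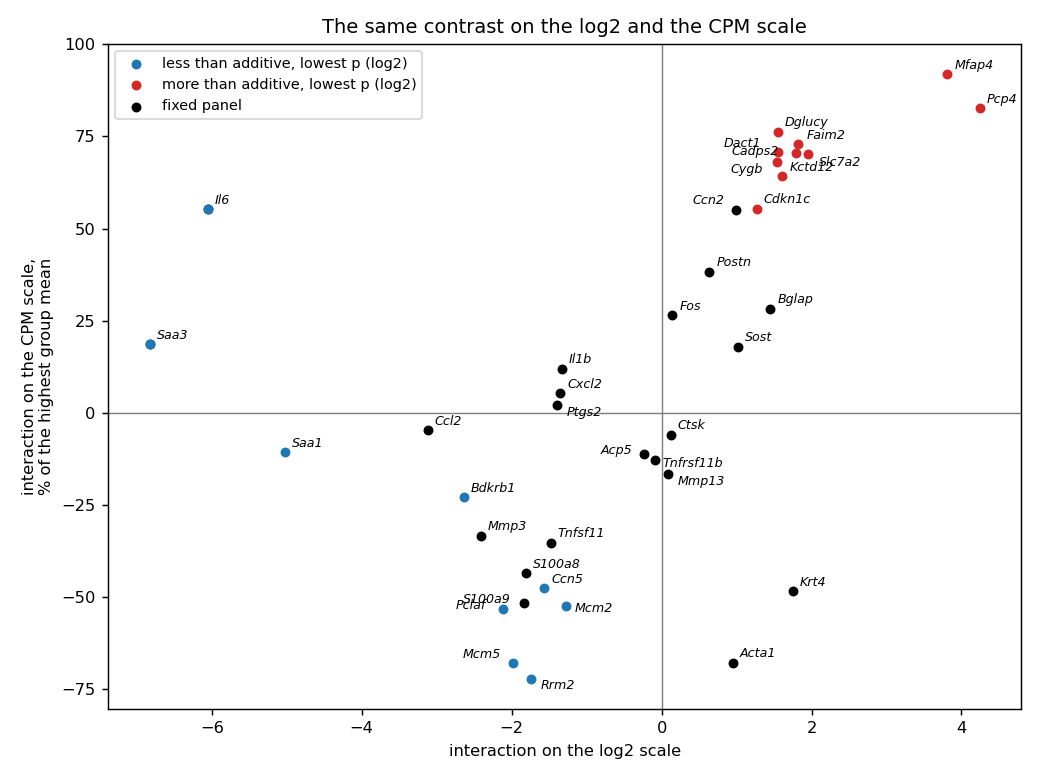
Interaction on the log2 scale (horizontal) against the interaction in CPM as a percentage of the gene's highest group mean (vertical), for 19 genes of lowest p on the log2 scale and the panel. Replication genes lie below 0 on both axes, Saa3 and Il6 lie at upper left with opposite signs, and the genes more than additive lie at upper right.

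Bone-forming genes had a median ligature effect of -1.07 on the log2 scale without trauma and -0.73 with it. Bglap, which encodes osteocalcin, was at 1161, 1751, 2928 and 3049 CPM in control, 3232, 2141, 1716 and 1795 CPM with trauma, 246, 431, 228 and 547 CPM with the ligature and 812, 1115, 1348 and 686 CPM with both. Each library with both lay above each ligature library and the control and trauma groups overlapped. The trauma effect was 0.00 ± 0.36 without the ligature and 1.45 ± 0.37 with it, an interaction of 1.45 ± 0.51 (unadjusted p = 0.0119, edgeR adjusted p = 0.969) on the log2 scale and 628 ± 584 CPM. In the 13 libraries the log2 value was 1.15 with an unadjusted p of 0.064. The CPM value was 352 without control 4 and 27.2 with the epithelium and muscle scores as covariates. Bglap2, a near-identical neighbour with which reads may be shared, gave 1.26 ± 0.52. Sp7 and Dlx5, transcription factors of osteoblasts, gave 0.76 ± 0.31 and 0.89 ± 0.34. The osteoblast list was above 0 in 12 of 17 members with a median of 0.26 (0.15 without control 4). An unadjusted p under 0.05 was found for 4 members (23.5%, against 4.93% of all genes), but Col1a1 (0.17), Ibsp (-0.19) and Alpl (-0.34) were near 0. Sost, the Wnt inhibitor of osteocytes, was at most 14.8 CPM in any library and had an interaction of 1.02 ± 1.40 (0.61 without control 2, 2.2 without trauma 1).

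Ligament fibroblast, Wnt and nerve lists also leaned above additivity. The ligament fibroblast list was above 0 in 15 of 18 members, with a median of 0.48 (0.55 in the 13 libraries), and in 13 of 18 on the CPM scale. Scx, the transcription factor of tendon and ligament, gave 1.16 ± 0.42, and Ogn, a small matrix proteoglycan, 1.81 ± 0.66. Ogn was at 340, 1486, 2281 and 2003 CPM in control and at 213 to 613 CPM in all other groups, so that its interaction is an equal low level after a single or a double insult. Postn, by contrast, gave 0.64 ± 0.63 (0.38 without control 3), and Ccn2, which rises with stretch, 0.99 ± 0.57 (0.40 without control 4). The stretch response list that holds Ccn2 was below 0 in 10 of 18 members, with a median of -0.16. Its 2 members with an unadjusted p under 0.05 (11.1%, against 4.93% of all genes) were both less than additive. For 1 of them the mean log2 CPM was only -1.76, and the count of 2 fell to 0 under at least 1 alternative. The Wnt list was above 0 in 15 of 20 members, with a median of 0.44. Sfrp2, a secreted Wnt modulator, was at 184 to 355 CPM with trauma and 455 to 604 CPM with both, which did not overlap, and gave 1.46 ± 0.52.

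The Schwann cell and nerve list was above 0 in 14 of 16 members, with a median of 0.89, and 5 (31.2%, against 4.93% of all genes) had an unadjusted p under 0.05. Mbp, a protein of the myelin sheath, was at 87.2, 87.1, 111 and 131 CPM in control, 93.0, 77.3, 37.1 and 110 CPM with trauma, 29.0, 37.5, 23.8 and 29.2 CPM with the ligature and 38.1, 77.4, 43.4 and 84.9 CPM with both. Every library with both lay above every ligature library, the highest of which was just above the lowest trauma library. The interaction was 1.42 ± 0.45 on the log2 scale and 55.8 ± 22.9 CPM. S100b, a calcium-binding protein of Schwann cells, gave 1.22 ± 0.48, whereas Sox10, the transcription factor that defines Schwann cells, gave -0.03 and Ngfr 0.05. The list median stayed between 0.68 and 1.05 with any single library left out.

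Immediate-early genes, which respond within minutes to force or handling, were above 0 in 12 of 19 members with a median of 0.21. An unadjusted p under 0.05 was found for 4 members (21.1%, against 4.93% of all genes), Jund, Egr3, Nr4a1 and Nr4a3, each of them more than additive. Fos was at 52.4 to 67.7 CPM in control, 35.1 to 145 with trauma, 77.6 to 137 with the ligature and 111 to 296 with both, and its trauma effect was 0.79 ± 0.38 without and 0.93 ± 0.38 with the ligature. Its interaction of 0.14 ± 0.53 was close to 0 with a 95% interval of -0.98 to 1.27. The orphan receptor Nr4a1 gave 1.69 ± 0.73, and 1.06 without control 4.

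**Figure D5:**
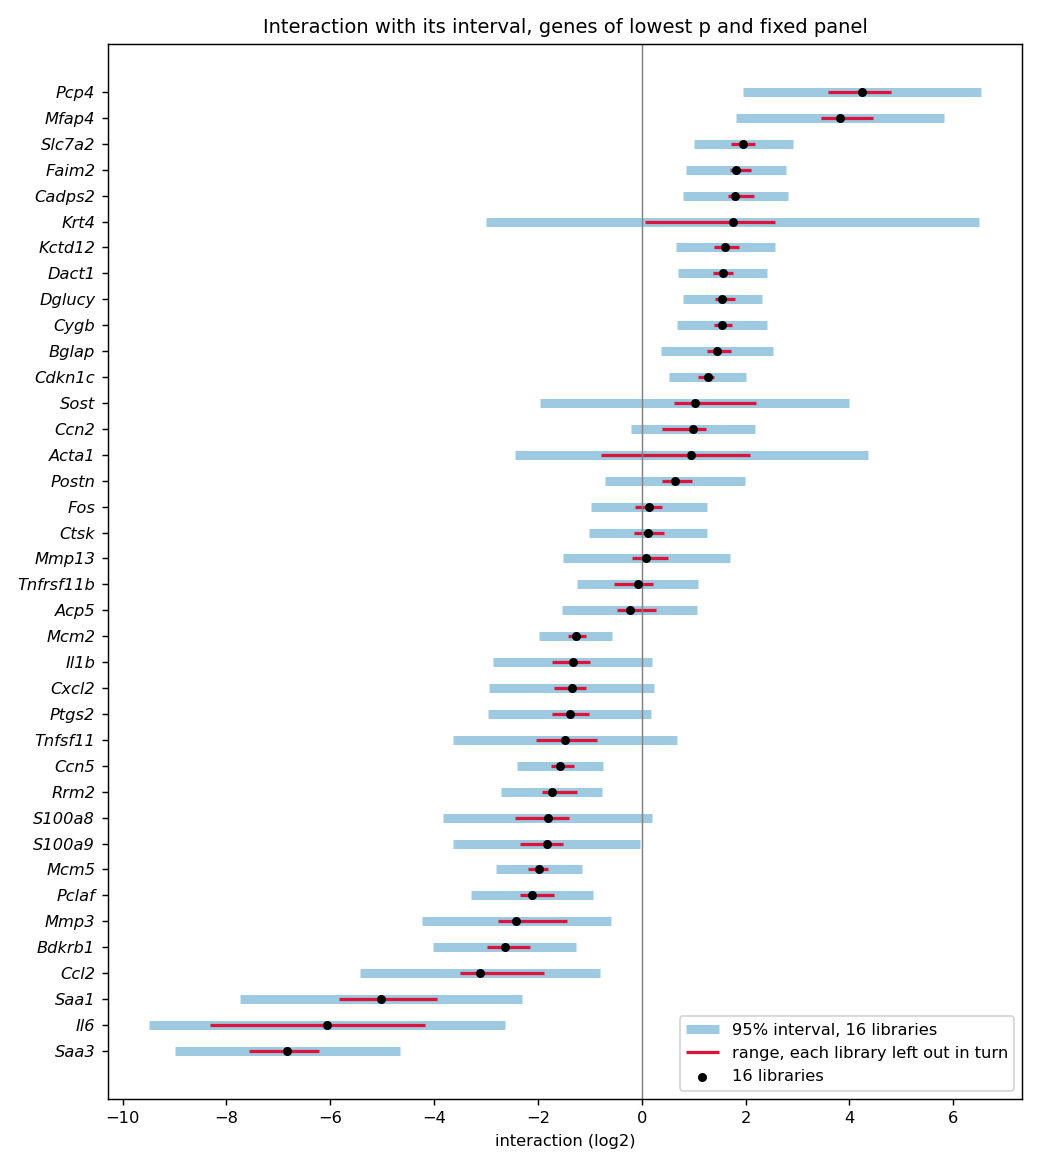
Log2 interaction with its 95% interval (blue bars) and the range when each of the 16 libraries is left out in turn (red lines), for 19 genes of lowest p and the panel. None of the 19 ranges crosses 0, while those of Ctsk, Acp5, Fos, Mmp13, Tnfrsf11b and Acta1 do. The 19 were chosen by low p in these same libraries, so a change of sign was unlikely from the start.

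Lists of tissues other than the ligament had large interaction medians that rested on few libraries. The marrow granulocyte precursor list had the highest median, 4.47, with 10 of 11 members above 0. Its score was 3.99 in control 4 and 2.32 in ligature plus trauma 1, and at most 0.71 in the other libraries, and without control 4 the median was 1.43. Elane, a granule protease of promyelocytes, was at 4.89 CPM in control 4, 2.46 in ligature plus trauma 1, at most 0.429 in the others and at 0 in all 4 ligature libraries. The skeletal muscle list had a median of 1.2 with 14 of 20 members above 0 on the log2 scale, yet 20 of 20 below 0 in CPM, and -0.80 on the log2 scale without control 3. Its member Acta1, muscle actin, gave 0.95 ± 1.61. The oral epithelium list had a median of -1.03 (-0.27 without trauma 3). With the epithelium and muscle scores as covariates it was -0.48, but the epithelium score is the mean of these same members, so that value is no check. Krt4, a keratin of the oral lining, gave 1.75 ± 2.24 from levels of 10.2 to 2253 CPM in control. These intervals are too wide to place either gene above or below additivity.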

How the data were processed

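RNA of mouse periodontal ligament was sequenced after poly(A) enrichment, per the labels' protocols. The authors deposited raw whole-number counts of 55359 genes per library. Build GRCm39 and the tools HISAT2 2.2.1, StringTie 2.1.7, Trimmomatic 0.39, FastQC 0.11.9 and DESeq2 1.32.0 are listed, per the submitters' processing notes. What counted the reads, and with which strand setting, is not given in the sources used here, so overlapping genes cannot be told apart. Symbols and transcript lengths came from GENCODE M21 and promoter windows from RefSeq, both on GRCm38.

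The counts were fitted with edgeR 4.0.16 (R 4.3.3) with TMM scaling, its expression filter (minimum count 10, by group) and 1 mean per group, leaving 20953 genes and 12 residual degrees of freedom. The log2 interaction was tested with the quasi-likelihood test. The CPM interaction was computed from the fitted group means, with a delta-method standard error and a Wald test. P-values were adjusted by Benjamini-Hochberg over all genes tested. Both were tested on simulated data.

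The genes named were the 10 of lowest p in each direction and scale (mean log2 CPM of at least 2, without predicted genes and antigen-receptor segments), up to 4 of lowest p in each list described, and a panel of 21; a few of these are not reported here. Other members named for contrast were chosen after their values were seen. The members and lists were chosen with earlier results of these data known. Alternatives covered scaling, filters, the replicate number as a block, each library left out, 13 libraries, tissue scores as covariates, the length trend removed by a spline with 5 degrees of freedom, DESeq2 1.42.0 and limma 3.58.1.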

Additional observations from a re-analysis of the deposited data

Results flagged for a closer look

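In 184 groups of 4 libraries (46 named genes in 4 groups) the library farthest out was compared with the others by Dixon's ratio, the gap to its neighbour over the group's range, with its 95% critical value as the limit. Chance flags about 1 in 20 groups, or 9.2, and 15 exceeded the limit. They were spread over 12 libraries, with at most 2 in any one. The ratio was 0.884 for Saa3 in control 1 (0.979 CPM) and 0.830 for Saa3 in ligature 2 (14995 CPM). For Il6 it was 0.844 in control 3 (0.309 CPM) and 0.981 in ligature plus trauma 2 (354 CPM). Rrm2 gave 0.841 in trauma 3 (65.3 CPM), and without that library its log2 interaction was -1.24 in place of -1.74. Cadps2 gave 0.886 in control 2 (10.7 CPM), 0.847 in ligature 4 (6.90 CPM) and 0.868 in trauma 1 (11.5 CPM). Rgs3 gave 0.841 in trauma 1 (142 CPM). Kctd12 gave 0.916 in ligature plus trauma 4 (147 CPM), Faim2 0.855 in ligature 3 (8.14 CPM) and Naaa 0.890 in ligature 1 (21.7 CPM). Spock2 gave 0.854 in control 4 (18.6 CPM) and Ptgs2 0.923 in ligature 2 (39.5 CPM). Mmp13 gave 0.885 in control 1 (772 CPM), which also held the lowest Ctsk and Postn of its group.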

How the results depend on the processing

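The count of genes passing on the log2 scale, 0 with edgeR on all libraries, was 57 with DESeq2, 2 without control 2 (the predicted genes Gm39321 and Gm34589), 2 in the 13 libraries (Saa3 and Exoc4), 1 without ligature plus trauma 3, 1 with the length trend removed and 1 with limma-trend (Saa3 each time). Leaving out 1 library gave 0 to 2. The cause was not tested. Of the 57, 9 were among the 19 named genes of lowest p. On the CPM scale 0 passed under every alternative run. The 19 named genes of lowest p on the log2 scale kept their sign in all 27 alternatives and the 18 on the CPM scale in all 25, while 7 of the 21 panel genes changed sign on the log2 scale and 8 on the CPM scale under at least 1. The genes of lowest p were chosen in these same libraries, so their kept sign follows largely from the choice and is no independent support. The adjusted p of Saa3 ranged from 2.8e-10 (DESeq2) to 0.591 (limma-voom with sample weights). The labels do not say whether replicate numbers pair the libraries, and the counts gave little sign of it, though a weak pairing could be missed. Of 24 same-number pairs 5 correlated over 0.1 (range -0.157 to 0.215), and 4 of 16 libraries correlated best with their own number. The replicate block gave 0 passing genes and 961 with an unadjusted p under 0.05. An interaction under about 0.9 on the log2 scale is within the median 95% interval.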
